A study of Mus musculus with 8 samples.

Results

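Transcripts of the subcortical maternal complex were followed in mature mouse eggs (MII oocytes, which wait at the second meiotic metaphase for fertilisation) of a Setd1b conditional knockout. The complex is represented by 7 genes, Nlrp5, Nlrp2, Tle6, Ooep, Khdc3, Padi6 and Zbed3, which were found by symbol among the 37224 genes of the count table, of which 11066 had enough counts to be tested. All 7 passed that filter. The 8 libraries, each from 1 oocyte, came from Setd1bGdf9cKO mice (knockout, n = 4) and from control mice (control, n = 4). The knockout name stands for a conditional deletion of Setd1b, which encodes an enzyme that methylates histone H3 at lysine 4, and refers to Gdf9, a gene active in growing oocytes. All donors had been superovulated, and the oocytes were neither cultured nor treated. The labels give no strain, age or control allele, and do not say how many females gave the oocytes. The p-values therefore rest on the variation among these 8 oocytes and libraries.

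The subcortical maternal complex is a large protein assembly that forms in the growing oocyte and lies beneath the cell cortex of the egg and early embryo. Its mRNAs are made during oocyte growth, and loss of a core protein arrests embryos at the first cleavages, which is why several of its genes are classed as maternal effect genes. Nlrp5 (also called MATER), Tle6 and Ooep (FLOPED) form the core. Khdc3 (FILIA), Padi6, Nlrp2 and Zbed3 have been reported as further components, and Padi6 and the core proteins are also needed for the cytoplasmic lattices, the fibrous stores of the egg cytoplasm.

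Setd1b acts in a complex with Cxxc1, a protein that binds unmethylated CpG, so the CpG content of the promoters is shown first. The sequences are the 120 bases before the annotated start of 4 genes, read 5′ to 3′ on the gene's strand from RefSeq (GRCm38.p6), with each CpG in capitals. They are shown because they span the range from the promoters of the 2 largest rises to those of both falls. The Padi6 window is chr4:140742644-140742763 (minus strand), that of Khdc3 chr9:73102278-73102397 (plus strand), that of Ooep chr9:78378589-78378708 (minus strand) and that of Zbed3 chr13:95324705-95324824 (plus strand).
Padi6: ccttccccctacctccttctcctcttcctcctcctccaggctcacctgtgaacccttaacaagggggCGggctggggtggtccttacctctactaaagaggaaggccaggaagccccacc
Khdc3: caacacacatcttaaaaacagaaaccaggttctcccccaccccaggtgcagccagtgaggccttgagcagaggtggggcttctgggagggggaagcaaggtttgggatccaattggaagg
Ooep: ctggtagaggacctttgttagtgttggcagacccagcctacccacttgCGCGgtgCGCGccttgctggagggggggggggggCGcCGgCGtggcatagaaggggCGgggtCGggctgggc
Zbed3: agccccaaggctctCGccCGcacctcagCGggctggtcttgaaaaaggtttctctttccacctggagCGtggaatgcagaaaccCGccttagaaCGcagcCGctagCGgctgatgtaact

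The Padi6 stretch held 1 CpG and the Khdc3 stretch 0, against 9 in the Ooep stretch and 8 in the Zbed3 stretch. The printed genes were picked by fold change, and the genes that rose but are not printed partly lay between. Their 120-base stretches held 7 CpG for Tle6, 5 for Nlrp5 and 1 for Nlrp2. Over the whole 300-base promoter (250 bases before to 50 bases after the start), the ratio of observed to expected CpG was 0.000 for Khdc3, 0.086 for Padi6, 0.160 for Nlrp2, 0.531 for Nlrp5 and 0.534 for Tle6, the 5 genes that rose in knockout oocytes. It was 0.602 for Ooep and 0.856 for Zbed3, the 2 genes that fell. The median over 8183 promoters of tested genes was 0.779, with quartiles of 0.573 and 0.923. By this ratio the promoters of all 5 genes that rose lay below the lower quartile. Across all tested genes the ratio did not divide the promoters by direction. Its median was 0.804 for genes called higher, 0.791 for genes called lower and 0.771 for genes not called. The number of CpG in the 300-base windows did not divide the complex genes by direction either. It was 0 for Khdc3, 2 for Padi6, 3 for Nlrp2, 9 for Nlrp5 and 18 for Tle6, against 15 each for Ooep and Zbed3. The median number over the promoters of tested genes was 21. Promoters with at most 10 CpG made up 14.3% of those of genes called higher, 23.4% of genes called lower and 20.8% of genes not called. Over all tested genes, such promoters were thus less frequent among genes that rose, unlike the low numbers of Khdc3, Padi6, Nlrp2 and Nlrp5. The annotated start lay inside the gene span of the count table, 562 bp from the gene start for Khdc3, 173 bp for Tle6 and 137 bp for Ooep. It lay 412 bp upstream of that span for Zbed3 and coincided with the gene start for the other 3. The 120-base stretches of Khdc3, Tle6 and Ooep thus lie within the counted gene spans. RefSeq lists 2 promoters each for Nlrp5 and Tle6 and 3 for Zbed3, and the promoter nearest to the gene start was used.

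Short motifs were searched in the same 300-base windows on both strands. The E-box CANNTG, the core recognised by basic helix-loop-helix factors such as Figla, occurred 5 times for Khdc3, 3 times for Tle6, 2 times each for Nlrp5 and Padi6, and 1 time each for Ooep and Zbed3. Nlrp2 held 0. Of all promoters of tested genes, 63.3% held at least 1 such E-box. TAATTA or TAATTG, letters bound by homeodomain factors such as Nobox, occurred in the windows of Nlrp5, Ooep and Padi6, and in 7.92% of all promoters. TATAAA was found for Zbed3 and in 7.15% of all promoters. These matches are descriptions of the letters.

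**Figure D1:**
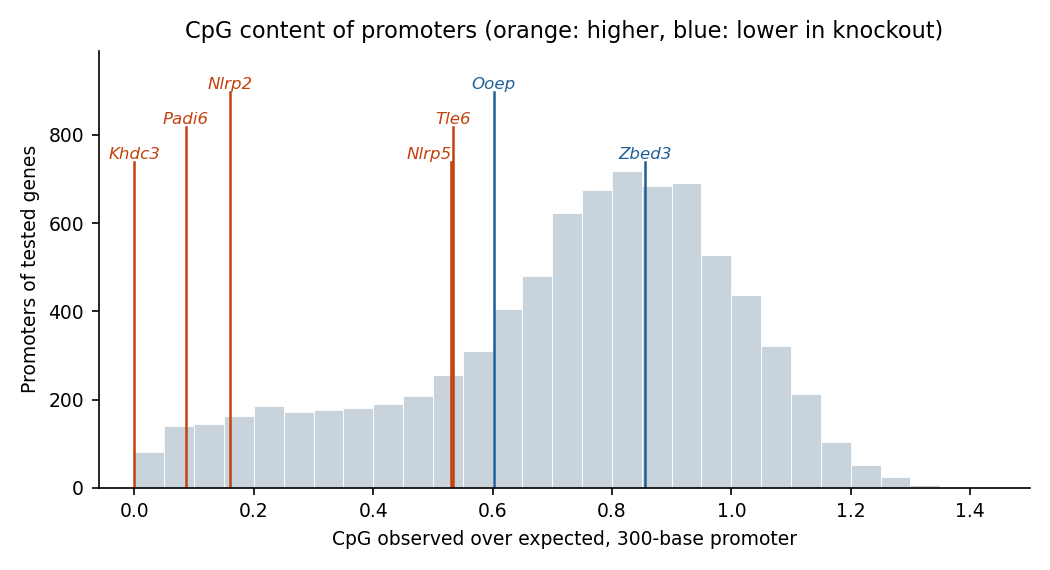
Histogram of the observed over expected CpG ratio (x axis) of 8183 promoters of tested genes (y axis, number of promoters), with a vertical line for each complex gene; line heights carry no value. The 5 genes that rose in knockout oocytes (orange) lie at 0.534 or below, and Ooep and Zbed3 (blue) lie at 0.602 and 0.856.

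The libraries held 9488899 to 11313502 assigned counts in knockout oocytes and 11029602 to 13519404 in control oocytes, and levels are given in CPM, the counts scaled to a common library total with composition factors. Setd1b had 4.43, 5.06, 2.97 and 3.54 CPM in knockout oocytes and 10.7, 12.8, 9.24 and 10.9 CPM in control oocytes, with no overlap. All 12 oocyte markers examined were detected, among them Bmp15, Mos and Ddx4, and of the 12, Zp1, Zp2 and Zp3 rose and Oosp1 fell. Of 15 cumulus and granulosa cell markers, 8 had no count in any library, including Amh, Foxl2 and Lhcgr, and their summed level was 55.9 to 90.8 CPM in knockout and 90.5 to 128 CPM in control libraries, most of it from Cyp19a1 and Nr5a2. Of 13 blood, stroma and oviduct markers, 4 had no count, and the sum was 36.4 to 59.5 CPM in knockout and 96.8 to 125 CPM in control libraries. These markers did not move together. Pecam1 (mean 33.8 CPM in knockout and 60.0 CPM in control libraries) and Epcam (2.98 and 32.9 CPM) fell. Cd68 (7.90 and 1.35 CPM) rose, and Dcn and Pdgfra did not pass. Knockout libraries had at least 10 counts for 11190 to 12153 genes, against 9913 to 10714 genes in control libraries. The part of these differences in the results on the complex was not tested.

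All 7 complex genes differed between knockout and control oocytes. Padi6, Nlrp5, Nlrp2, Tle6 and Khdc3 rose and Ooep and Zbed3 fell, by edgeR's quasi-likelihood test with Benjamini-Hochberg adjustment over all tested genes, and for each of the 7 the CPM of the knockout libraries did not overlap that of the control libraries. These counts stand against a wide background, since 25.8% of all tested genes were called, 13.6% higher and 12.2% lower, and 31.3% had groups that did not overlap, 17.7% with the knockout libraries higher and 13.6% with them lower. Among the 6577 genes with at least 10 CPM in 4 libraries, 38% were called, 21.3% higher and 16.6% lower. Under scaling by library totals alone, 26.1% of tested genes were called, 21.5% higher and 4.55% lower, and the complex then had 5 genes called higher and 0 lower. On that scale the groups of the 5 genes that rose still did not overlap, where 32.7% of tested genes did not, 27% with the knockout libraries higher and 5.69% with them lower, but those of Ooep and Zbed3 did overlap. Since the kit primes on poly(A) tails, a lower level can come from fewer transcripts or from shorter tails. A higher level can likewise come from more transcripts or from longer tails. These cannot be told apart here, for the genes that rose or for those that fell.

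**Figure D2:**
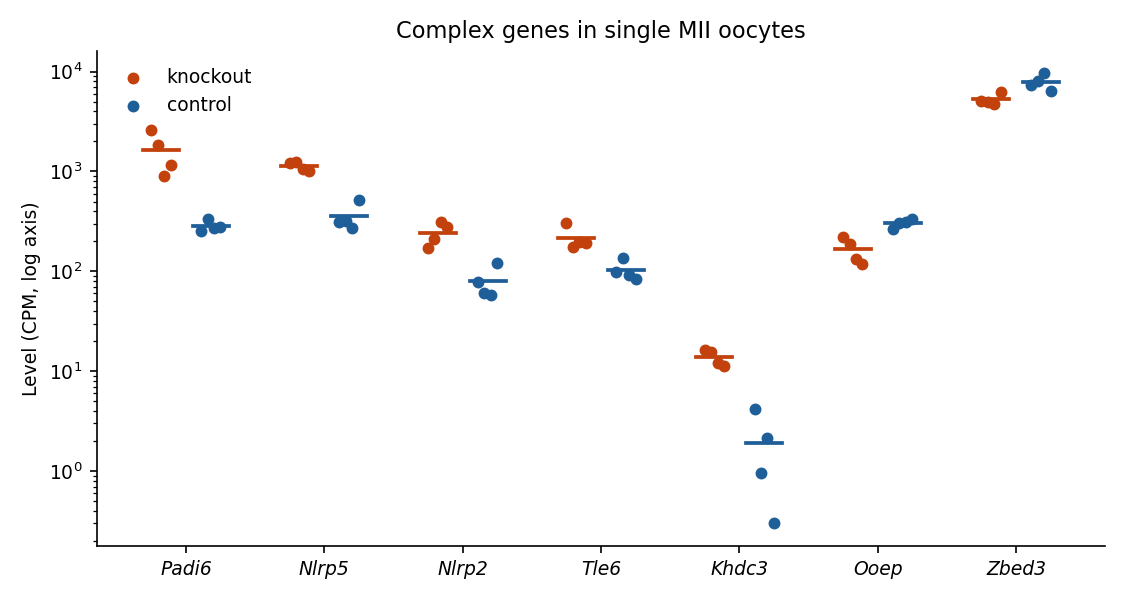
Level of each complex gene (y axis, CPM, log axis) in every library, knockout oocytes left (orange) and control oocytes right (blue), 4 points a group, with a bar at the group mean. On this scale no gene's groups overlap, and 5 genes are higher and Ooep and Zbed3 lower in knockout oocytes.

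Padi6 encodes the peptidylarginine deiminase of the egg and lies on chromosome 4 (mm10, 140727355 to 140742643, minus strand). It had 2618, 1855, 902 and 1154 CPM in knockout oocytes, against 255, 337, 273 and 276 CPM in control oocytes. The lowest knockout oocyte was well above every control oocyte, and the knockout oocytes were the more spread of the groups. The coefficient of variation was 47.3% in knockout and 12.5% in control oocytes, where counting error of reads would give 0.791% and 1.83%. That error leaves out amplification, so spread between oocytes and technical noise cannot be told apart. The mean was 1632 ± 771 CPM in knockout and 285 ± 35.8 CPM in control oocytes (SD, n = 4 each). The log2 fold change was 2.52 ± 0.30 (SE) with an adjusted p of 0.000213 by edgeR. Without knockout replicate 1, the highest oocyte, the log2 fold change was 2.20.

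Nlrp5, the founding gene of the complex, encodes an NLR family protein (chromosome 7, 23385889 to 23441922, plus strand). Its level was 1218, 1243, 1050 and 1000 CPM in knockout oocytes and 315, 321, 274 and 515 CPM in control oocytes. The knockout oocytes were close to each other, and control replicate 4 stood above the other control oocytes but still below the lowest knockout oocyte. The means were 1128 ± 121 CPM in knockout and 356 ± 108 CPM in control oocytes (SD, n = 4 each), with a log2 fold change of 1.66 ± 0.21 (SE) and an adjusted p of 0.000298 by edgeR. Of the 3422 distinct 75-base stretches of its longest GENCODE transcript, 176 also occur in Nlrp5-ps, so reads from those stretches cannot be assigned to it alone.

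Nlrp2, an NLR family gene on the same chromosome (5298554 to 5351035, minus strand), had 170, 212, 315 and 278 CPM in knockout oocytes and 79.03, 60.3, 58.1 and 121 CPM in control oocytes. Control replicate 4 was again the highest control oocyte, and the lowest knockout oocyte was replicate 1, which was the highest for Padi6. The log2 fold change was 1.62 ± 0.27 (SE), with an adjusted p of 0.00161 by edgeR. The gene span overlaps Gm5065 on the other strand, although the 2 share no exon bases. Gm5065 had 7010 counts over the knockout libraries and 20177 over the control libraries, the opposite direction to Nlrp2 in counts.

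Tle6 belongs to the Groucho family of corepressors and binds Nlrp5 and Ooep in the core (chromosome 10, 81590904 to 81601073, minus strand). It had 304, 177, 196 and 194 CPM in knockout oocytes and 97.9, 137, 91.2 and 83.7 CPM in control oocytes. Knockout replicate 1 stood apart from the other 3 knockout oocytes, which were above control replicate 2, the highest control oocyte. The log2 fold change was 1.09 ± 0.23 (SE, adjusted p = 0.00493 by edgeR), and 0.89 without knockout replicate 1 (adjusted p = 0.0168).

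Khdc3, a KH domain protein that guards chromosome integrity in the cleaving embryo, was the least abundant of the 7 (chromosome 9, 73101836 to 73104443, plus strand). Its counts were 219, 208, 135 and 120 in knockout libraries and 38, 12, 26 and 3 in control libraries. In CPM these were 16.5, 15.7, 12.2 and 11.2 in knockout and 4.19, 0.960, 2.15 and 0.301 in control oocytes. Every knockout oocyte was higher than every control oocyte, and the control oocytes were widely scattered at low counts. Their coefficient of variation was 89.9%, where counting error of reads, which leaves out amplification, would give 34.7%. The log2 fold change was 2.87 ± 0.66 (SE), the largest and the least precise of the 7, with an adjusted p of 0.00856 by edgeR. It ranged from 2.52 without control replicate 4 to 3.58 without control replicate 1. The gene shares 161 of its 2055 exon bases with Gm20509, which had 0 counts, and 649 of the 1607 distinct 75-base stretches of its longest transcript also occur in that gene model, and reads over both models are by default counted for neither.

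The 2 genes that fell differ in abundance. Ooep, a core component with a KH-like fold (chromosome 9, 78376109 to 78378725, minus strand), had 221, 189, 133 and 119 CPM in knockout oocytes and 263, 302, 311 and 331 CPM in control oocytes. The control oocytes lay close together, and the highest knockout oocyte was below the lowest control oocyte by a small margin. The mean was 166 ± 47.5 CPM in knockout and 302 ± 28.8 CPM in control oocytes (SD, n = 4 each), and the log2 difference was -0.86 ± 0.21 (SE, adjusted p = 0.0105 by edgeR). Under scaling by library totals alone, the log2 fold change was -0.46 and the call was lost (adjusted p = 0.163), while the median of all tested genes moved to 0.49, so that relative to this median Ooep was at -0.95. On that scale Ooep ran from 135 to 268 CPM in knockout and from 216 to 293 CPM in control oocytes, and the groups overlapped.

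Zbed3, a BED-type zinc finger protein that binds axin and is the most abundant of the 7 transcripts (chromosome 13, 95325237 to 95337841, plus strand), had 5096, 5004, 4758 and 6260 CPM in knockout oocytes and 7279, 8045, 9636 and 6384 CPM in control oocytes. Knockout replicate 4 and control replicate 4 nearly met, and the other oocytes were apart. Its log2 fold change of -0.57 ± 0.17 (SE) passed the threshold with an adjusted p of 0.0278 by edgeR, but not with library totals only (-0.19, adjusted p = 0.474), where its groups overlapped at 5078 to 7076 CPM in knockout and 5097 to 9102 CPM in control oocytes. The call was also lost in 5 of the 8 fits that left out 1 library, with adjusted p-values up to 0.0829. Of the 7 differences, that of Zbed3 was called in the fewest settings.

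**Figure D3:**
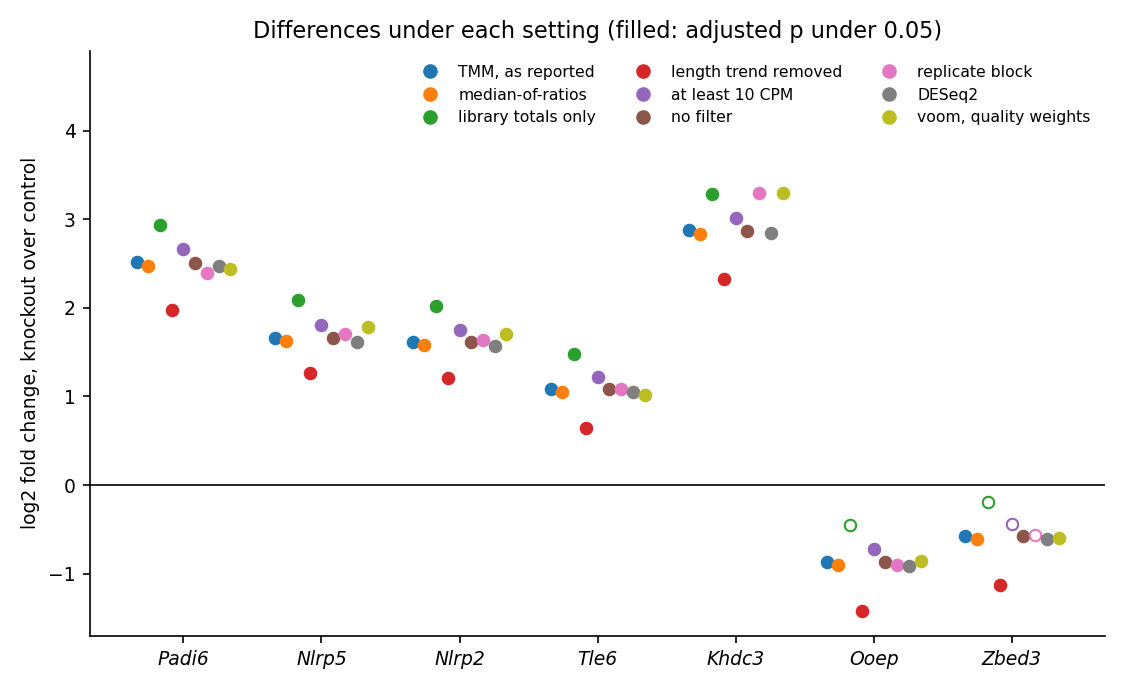
Log2 fold change of knockout over control oocytes (y axis) for each complex gene under 9 scalings, filters and tests (colours), filled where the adjusted p was under 0.05 and open otherwise. The 5 genes that rose keep their direction and call in all of these settings; Ooep is open with library totals only, and Zbed3 is open in 3 settings.

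Across 18 settings, the fit as reported and 17 alternatives, Padi6, Nlrp5, Nlrp2, Tle6 and Khdc3 were called higher in each, Ooep was called lower in 17 and Zbed3 in 10. The lowest log2 fold change over these settings was 1.98 for Padi6, 1.26 for Nlrp5, 1.21 for Nlrp2, 0.65 for Tle6 and 2.33 for Khdc3. In the authors' deposited table, all 7 genes are listed in the same directions, with unshrunken log2 fold changes of 2.47 for Padi6, 1.62 for Nlrp5, 1.57 for Nlrp2, 1.04 for Tle6, 2.84 for Khdc3, -0.91 for Ooep and -0.61 for Zbed3. The adjusted p-values of the authors' deposited table run from 1.04e-14 for Padi6 to 0.002537 for Zbed3. Both analyses use the same libraries.

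The order of the 7 levels differed between the groups. Per kilobase of gene length, the knockout order was Zbed3 (2787 CPM per kb), Padi6 (645), Nlrp5 (319), Ooep (77.5), Nlrp2 (71.8), Tle6 (70.5) and Khdc3 (6.75). In control oocytes it was Zbed3 (4137 CPM per kb), Ooep (141), Padi6 (113), Nlrp5 (101), Tle6 (33.2), Nlrp2 (23.4) and Khdc3 (0.924). Within knockout oocytes Ooep, Nlrp2 and Tle6 overlapped each other per kb, and within control oocytes Ooep, Padi6 and Nlrp5 overlapped, as did Tle6 and Nlrp2, so their order within these sets is not resolved. By rank per kb among tested genes, Padi6 stood at 45 in knockout and 569 in control oocytes, and Ooep at 697 in knockout and 456 in control oocytes. Zbed3 was among the most abundant tested genes in both, at rank 13 in knockout and 10 in control oocytes.

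The 7 genes together took 1.17%, 1.018%, 0.786% and 1.019% of all counts in knockout libraries and 0.682%, 0.851%, 1.01% and 0.616% in control libraries, and these ranges overlapped. Zbed3 carried most of both sums. Without it, the other 6 genes took 0.552%, 0.432%, 0.278% and 0.312% in knockout libraries and 0.0834%, 0.107%, 0.0953% and 0.106% in control libraries, and the groups did not overlap. Within the summed per-kb level of these 6 genes, Ooep made up 6.53 ± 0.53% in knockout oocytes and 34.4 ± 2.72% in control oocytes (SD, n = 4 each). Padi6 made up 52.1 ± 9.79% in knockout and 27.5 ± 3.36% in control oocytes. The share of Nlrp5 was 27.9 ± 5.40% in knockout and 24.1 ± 4.71% in control oocytes and overlapped between the groups. The sums and these shares are made from the single-gene values given above and are not a separate result.

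**Figure D4:**
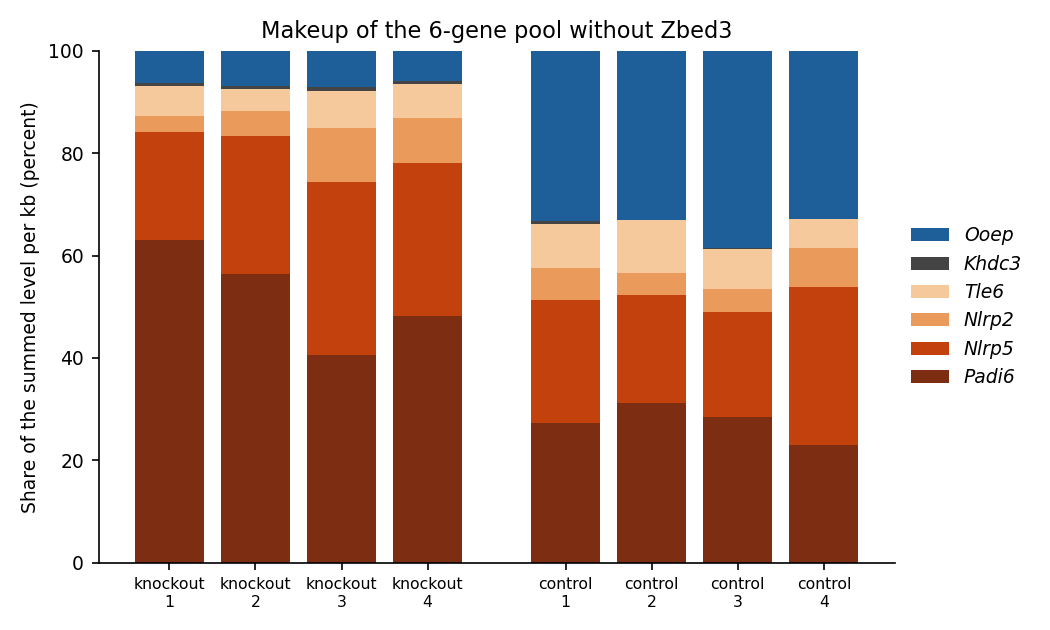
Makeup of the summed level per kilobase of the 6 complex genes other than Zbed3 (y axis, percent) in each library, knockout oocytes left and control oocytes right. Ooep (blue) takes 5.92% to 7.11% of each knockout bar and 32.8% to 38.4% of each control bar, and Padi6 (darkest brown) takes the larger part of the difference.

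Ratios of 2 genes within a library do not depend on depth or scaling. The log2 ratio of Ooep to Padi6 counts was -3.57, -3.29, -2.76 and -3.27 in knockout libraries and 0.04, -0.16, 0.19 and 0.26 in control libraries. For Nlrp5 over Ooep, which are partners in the core, it was 2.46, 2.72, 2.98 and 3.07 in knockout libraries and 0.26, 0.09, -0.18 and 0.64 in control libraries. Both ratios separated the groups without overlap, with differences of -3.31 and 2.61. Between the 2 genes that fell, the ratio of Ooep to Zbed3 overlapped, as did that of Nlrp5 to Nlrp2, which differed by 0.06 between the group means.

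Of the 21 pairs among the 7 genes, 12 had ratios that did not overlap between groups. The 10 pairs that join a gene that rose with one that fell separate by construction, since each gene separates on its own. Of the 11 pairs of the same direction, 2 separated, and both hold Tle6: the ratio of Tle6 to Padi6 averaged -2.82 ± 0.53 in knockout and -1.50 ± 0.19 in control libraries (log2, SD, n = 4 each), and that of Tle6 to Khdc3 averaged 3.95 ± 0.32 in knockout and 6.23 ± 1.54 in control libraries. By root mean square difference of centred log2(CPM + 1) over the 8 libraries, the most alike members were Nlrp5 and Nlrp2 at 0.35 and Ooep and Zbed3 at 0.40, and the least alike were Ooep and Khdc3 at 1.82.

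By the same measure over all tested genes, the closest profiles were Gm10639 and Trmt1l for Nlrp5, Rslcan18 and Tslp for Nlrp2, Acy3 and Ipo9 for Tle6, and Atg4a-ps and Adam32 for Ooep. They were Aldh1a2 and Glul for Khdc3, B3galt1 and Kctd21 for Padi6, and Atp11a and Bnc1 for Zbed3. The differences ran from 0.08 for Atp11a and Zbed3 to 0.25 for Kctd21 and Padi6. Several of these genes are scarce, with Gm10639 at 2.47 CPM in knockout and 0.17 CPM in control oocytes, and the added 1 shrinks the profiles of such genes. Aldh1a2, a retinoic acid synthesis enzyme, was the most abundant match to a gene that rose, at 83.0 CPM in knockout and 17.4 CPM in control oocytes.

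The transcripts of 15 genes whose proteins are reported to bind the complex or the lattices were all tested. By edgeR, 3 rose, 3 fell and 9 did not pass, where 13.6% of all tested genes rose and 12.2% fell. With the filter of 10 CPM in 4 libraries, 13 were tested, 4 rose and 2 fell, where 21.3% of genes passing that filter rose and 16.6% fell. The difference from these shares was not tested. The 15 genes had a median log2 fold change of -0.14 in the fit as reported, against 0.10 over all tested genes. Cfl1, the actin-severing protein cofilin, averaged 287 ± 79.7 CPM in knockout and 25.8 ± 15.1 CPM in control oocytes (SD, n = 4 each). Its log2 fold change was 3.48 ± 0.37 (SE), at an adjusted p of 9.73e-05 by edgeR. Tubb4b, a beta tubulin, rose by 1.04, and Skp1a, an adaptor of SCF ubiquitin ligases, by 0.85 on the log2 scale. Both calls were lost with a length trend removed, at 0.49 for Tubb4b and 0.31 for Skp1a. Nlrp4f, an NLR family gene, fell by 1.34, the F-box gene Fbxw24 by 1.58 and the ubiquitin-conjugating enzyme Ube2d3 by 0.52. Ube2d3 did not pass with library totals only (-0.12, adjusted p = 0.502), with the 10 CPM filter (-0.39, 0.0545) or with the replicate block (-0.52, 0.0894). Zar1 and Npm2, other egg proteins needed after fertilisation, had log2 fold changes of -0.15 and -0.14 and did not pass, although both were called lower with a length trend removed (-0.73 and -0.72).

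Of 40 other maternal effect genes of the egg, 38 were tested, and by edgeR 4 rose, 11 fell and 23 did not pass. In that fit, 13.6% of all tested genes rose and 12.2% fell. With the 10 CPM filter, 37 were tested, 6 rose and 10 fell, where 21.3% of genes passing that filter rose and 16.6% fell. The difference from these shares was not tested. The median log2 fold change in the fit as reported was -0.25. The split depended on scaling, at 7 higher and 6 lower with library totals only and 3 higher and 21 lower with a length trend removed. Zfp57, a protector of imprints, had 2829 ± 645 CPM in knockout and 790 ± 50.6 CPM in control oocytes (SD, n = 4 each) and a log2 fold change of 1.84. Ube2a, a ubiquitin-conjugating enzyme, rose by 2.15 and Setdb1, a histone H3 lysine 9 methyltransferase, by 1.53. Btg4, which recruits the deadenylase to maternal mRNA, had 2739 ± 476 CPM in knockout and 7945 ± 1698 CPM in control oocytes, and its log2 fold change was -1.54. Rlim, a ubiquitin ligase, fell by 0.94.

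Family relatives of the complex genes were read in the same fit. Of 10 tested NLR family genes outside the complex, 0 rose and 8 fell by edgeR, where 13.6% of all tested genes rose and 12.2% fell, with a median log2 fold change of -1.32, against the rises of Nlrp5 and Nlrp2. DESeq2, which tested 12 of them, also called 0 higher and 8 lower, voom called 1 higher and 8 lower, and 1 of the 10 (Nlrp14) was higher at an unadjusted p under 0.05. The replicate block gave 0 higher and 6 lower, and the 10 CPM filter 1 higher and 7 lower. With library totals only, 1 was higher and 6 were lower, and the median relative to all genes was -1.40. Nlrp9b had 108 ± 18.2 CPM in knockout and 434 ± 50.1 CPM in control oocytes (SD, n = 4 each). The log2 fold changes of Nlrp4a and Nlrp4b were -1.36 and -1.35. The exceptions among the 10 were Nlrp14 (0.60, adjusted p = 0.0619) and Nlrp4e (-0.37, adjusted p = 0.258), which did not pass by edgeR; unadjusted p was 0.0172 for Nlrp14. Nlrp14 was called higher by voom, with the 10 CPM filter and with library totals only, and Nlrp4e lower with a length trend removed. These genes are close paralogs, and reads shared between them were not resolved.

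Among KH domain relatives, Dppa5a, known from pluripotent cells, had 232 ± 44.6 CPM in knockout and 7.22 ± 2.93 CPM in control oocytes (SD, n = 4 each), and its log2 fold change was 5.01. Khdc1b was the other way, at 874 ± 175 CPM in knockout and 3135 ± 121 CPM in control oocytes, and its log2 fold change was -1.84. Khdc1a and Khdc1c did not pass, at 0.14 and 0.04. Of the TLE genes, Tle4 rose by 0.92, and this call was lost with a length trend removed. Padi4 and Padi2 were scarce, with 97 and 136 counts over the knockout libraries and 8 and 27 over the control libraries, and their log2 fold changes of 3.30 and 2.24 did not pass by edgeR (adjusted p = 0.0569 and 0.134). Padi4 was called higher by DESeq2 (adjusted p = 0.0335), by voom (0.0161) and with library totals only (0.0337), and Padi2 by none of these. Zbed4 and Zbed5 did not pass, at -0.53 and -0.001.

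**Figure D5:**
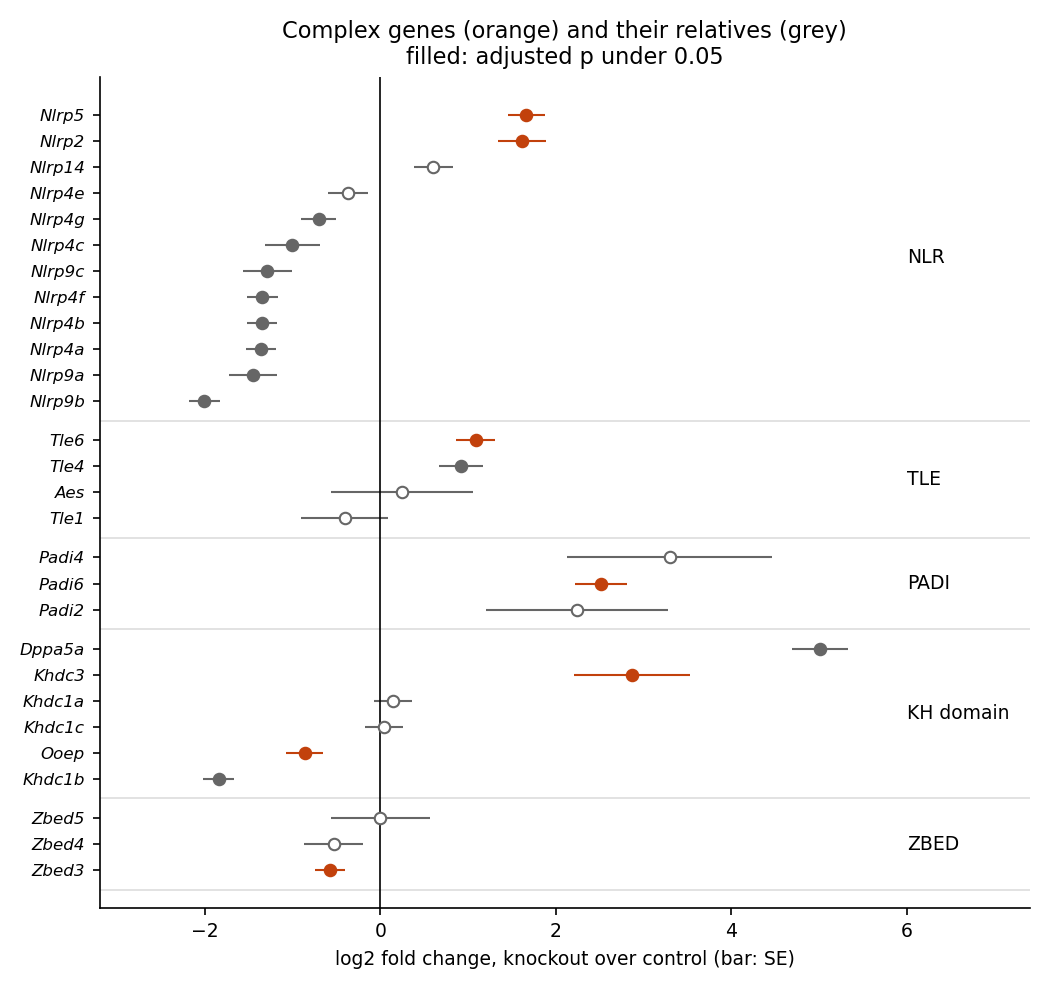
Log2 fold change of knockout over control oocytes (x axis, bar: SE) for the 7 complex genes (orange) and 21 tested relatives (grey), grouped by family, filled where the adjusted p was under 0.05. In the NLR group Nlrp5 and Nlrp2 lie at 1.66 and 1.62, and 8 relatives lie below 0 with filled points.

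The 3 nearest tested genes on each side of each complex gene on its chromosome were compared. Their distances ran from 3.22 kb for Padi4 to 3390 kb for Ceacam20, so they are not all close by. Of these 42 neighbours, 5 rose and 10 fell, where 13.6% of all tested genes rose and 12.2% fell. The difference was not tested. Those that fell include Ceacam20 and Nlrp9b, 3390 and 3310 kb from Nlrp5, and Wdr72, 1010 kb from Khdc3. Aldh4a1, 1080 kb from Padi6, did not pass. With library totals only, 12 were higher and 6 lower. Ooep fell while Dppa5a, 7.93 kb away, rose, and Omt2b, 46.5 kb away, fell, with a log2 fold change of -1.99. Rsl24d1, a ribosome assembly factor 8.98 kb from Khdc3, rose by 3.34, while Unc13c, 376 kb from Khdc3 on the same side, fell by 1.98. Rfpl4, an egg RING finger gene 182 kb from Nlrp2, fell by 1.53. Padi4, whose calls are given above, is the nearest neighbour of Padi6 at 3.22 kb. Rcc2, 4.13 kb away on the other side, was at -1.36 (adjusted p = 0.0206 by edgeR), and did not pass with library totals only (adjusted p = 0.0984).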

How the data were processed

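RNA of 8 single oocytes (4 knockout, 4 control, grouped by the genotype label) was reverse transcribed from poly(A) tails and amplified (SMARTer Ultra Low kit, no strand mark, no molecular identifiers) and sequenced as 75-bp single reads, per the labels' protocols. Per the submitters' processing notes, GSNAP, featureCounts 1.4.4, DESeq2 1.3.79 and build mm10 were used. The authors' gene counts, per the file headers, rest on Ensembl 69 gene models, reads with mapping quality of at least 1, unstranded counting and the default for multiply mapped reads, so reads of near-identical or overlapping genes may be lost or mixed. The authors' deposited comparison table gives log2 fold changes, their standard error and a test statistic (a score with no fixed range), p-values, RPKM values and, for each library, a normalized signal. Only its log2 fold changes and adjusted p-values are set beside the results, and its gene coordinates were not used. Here, 35449 of 37224 identifiers were given a symbol by a gene name table and 10 by the deposited table. The deposited counts entered edgeR 4.0.16 (R 4.3.3, TMM factors, filterByExpr, quasi-likelihood F test, genotype only), with p-values adjusted by Benjamini-Hochberg over 11066 genes with a threshold of 0.05. The SE is the size of the log2 fold change divided by the square root of F. CPM uses totals multiplied by TMM factors, which were above 1 in every knockout and below 1 in every control library, so scaling bears on each direction. A floor of 3 counts equals 0.222 to 0.316 CPM by library totals, and covers counting error only since counts are reads. The fit was tested on simulated counts with a shared mean for both groups, apart from a few genes raised or lowered evenly. That test did not cover a difference in composition between the groups. Within-library ratios had 0.5 added to each count. As alternatives, TMM was replaced by median-of-ratios size factors, by library totals alone, by TMM without mitochondrial genes or by removal of a length trend (loess, span 0.5). Other alternatives were a filter of 10 CPM in 4 libraries or none, DESeq2 1.42.0, limma 3.58.1 voom with quality weights, a block for the replicate number, and leaving out each library in turn. The genes of the complex and the lists of partners, maternal effect genes and relatives were chosen with earlier results of these data known. Lists overlap (Nlrp4f, Nlrp14, Zar1, Npm2, Uhrf1 and Dnmt1 are in more than 1), and Zbed6 and Hbb-b1 matched no gene. Named were all 7 complex genes, Setd1b, up to 6 tested genes per list by smallest p, and the 2 genes most alike each member. Other list genes in the text were chosen after their values were seen. No list was given a test. Promoters came from RefSeq (GRCm38.p6), and transcript stretches were compared in GENCODE M21.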

Additional observations from a re-analysis of the deposited data

Results flagged for a closer look

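Of 60 groups of 4 libraries examined for an oocyte standing apart from the others of its group, 1 was noted: Tle6 in knockout replicate 1, at 303.8 CPM, where the other 3 knockout oocytes lay between 177 and 196 CPM. The gap to its nearest neighbour, relative to the whole range, exceeded Dixon's 95% critical value for 4 samples. Chance alone gives such a gap in about 1 in 20 groups. Without this library the log2 fold change of Tle6 was 0.89 (adjusted p = 0.0168 by edgeR).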

How the results depend on the processing

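Directions were kept throughout for the 7 complex genes, and the cause of the changes below was not tested. With library totals only, Ooep was at -0.46 (adjusted p = 0.163) and Zbed3 at -0.19 (0.474). Zbed3 also lost its call with a filter of 10 CPM in 4 libraries (-0.44, 0.0651) and with the replicate block (-0.56, 0.111). Leaving out 1 library each gave log2 fold changes of -0.67 to -0.46 for Zbed3, with 1 to 2 complex genes called lower. It was lost without knockout replicate 1 (adjusted p = 0.0698), 2 (0.0829) or 3 (0.065) and without control replicate 2 (0.0581) or 3 (0.0689). Complex genes called lower numbered 0 with library totals only, 1 with the 10 CPM filter and 1 with the block. Over all tested genes, 1503 were higher and 1347 lower as reported, 2382 higher and 504 lower with library totals only, 2332 lower with a length trend removed and 861 lower with the block, and 837 to 1244 lower with 1 library left out. The median log2 fold change moved from 0.10 to 0.49 with library totals only and to -0.22 with the length trend removed. Partners called were 6 higher (totals), 1 higher and 6 lower (length trend) and 5 higher (voom). Maternal effect genes were 7 higher and 6 lower (totals) and 21 lower (length trend). Relatives were 4 higher (totals), 1 (length trend), 4 (voom) and 1 to 4 with 1 library left out. Neighbours were 12 higher and 6 lower (totals), 3 higher (length trend), 3 higher (10 CPM), 6 lower (block), 9 higher (DESeq2), and 3 to 6 higher and 5 to 9 lower with 1 library left out. Same-numbered knockout and control libraries correlated at -0.12 to -0.02 in their deviations from group means, and differently numbered ones at -0.08 to 0.12. No pairing by number was visible, although 4 libraries a group are too few to settle it. Apart from Zbed3, the block changed no call on the complex. Setd1b lost its call with library totals only (-1.04, adjusted p = 0.0894), with the block and without knockout replicate 3 or control replicate 2. Depth limits Khdc3 most, at 3 to 38 counts in control libraries.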
